A study of Mus musculus with 8 samples.

Results

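The genes described here are the transcriptional coactivators Yap1 and Wwtr1 (the Taz gene), the Tead1, Tead2, Tead3 and Tead4 transcription factor genes, and the target genes Ctgf, Cyr61, Ankrd1 and Amotl2. They were taken by symbol, and all 10 were found among the 23420 genes of the deposited table, where Ctgf and Cyr61 stand under these older names (Ccn2 and Ccn1 in the annotation). The study profiled head mesenchyme at E12.5. One group was supraorbital mesenchyme (SOM), from above the eye, and the other was early migrating mesenchyme (EMM). All embryos were C57BL/6 and wild type, with no treatment named in the labels. Both groups had 4 libraries, each from pooled tissue of 4 to 5 embryos, cleared of brain and surface ectoderm with dispase and then frozen.

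The Hippo pathway is a kinase cascade in which Mst kinases activate Lats kinases. Lats kinases phosphorylate Yap and Taz, which are then held in the cytoplasm or degraded. Unphosphorylated Yap and Taz enter the nucleus and, since they do not bind DNA themselves, act through Tead factors. Yap and Taz also respond to actin tension, and in mice both are needed in neural crest cells for craniofacial development. The data are messenger RNA levels, so phosphorylation and location of the proteins were not measured.

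The libraries held 16.8 to 33.7 M gene-assigned reads in SOM and 12.7 to 22.4 M in EMM. All 7 mesenchyme markers were present in every library, 3 called higher in SOM and 4 lower. Their summed levels were 360101 to 417218 normalized counts in SOM and 872551 to 1010329 in EMM. Most of these sums came from Col1a1, Col1a2 and Col3a1, while Twist1 had means of 8744 in SOM and 6994 in EMM. Markers of other cells moved with the groups. All 10 macrophage markers were higher in EMM, with sums of 2211 to 2463 in SOM against 8184 to 9871 in EMM. Pericyte and smooth muscle markers (10 genes, 2 called higher in SOM and 8 lower) had sums of 13442 to 15658 in SOM and 17496 to 19761 in EMM. Endothelial markers (10 genes, 1 called higher in SOM and 7 lower) had sums of 13996 to 16432 in SOM and 18423 to 24279 in EMM. All 6 tested red blood cell markers were higher in EMM, with sums of 76079 to 92482 in SOM and 142444 to 387879 in EMM, and Hba-a1, Hba-a2 and Hbb-b1 were listed at 0 in all libraries. Neural crest glia markers (8 genes, 6 called higher in SOM and 2 lower) summed to 1309 to 1537 in SOM and 809 to 1159 in EMM. Neuron markers (7 tested, 4 called higher in SOM and 3 lower) summed to 2711 to 2915 in SOM and 1032 to 1422 in EMM. Most of these sums came from Tubb3 (1502 in SOM, 663 in EMM) and Stmn2 (1057, 114). Nefl and Elavl4 also had higher means in SOM. The means of Syt1 (15.6, 131), Snap25 (45.2, 82.7), Elavl3 (3.54, 20.8) and Dcx (3.32, 19.1) were higher in EMM. Skeletal muscle markers (6 tested, none called higher in SOM and 5 lower) summed to 117 to 160 in SOM and 398 to 643 in EMM. Myf5 was at 0 in all libraries and Myod1 at 0 in EMM. Myh8 made up most of the EMM sums, with means of 39.7 in SOM and 361 in EMM. Myog had a higher mean in SOM (7.13, against 0.256 in EMM). Of 10 surface ectoderm markers, 3 were higher in EMM and none in SOM, with sums of 1601 to 2080 in SOM and 4211 to 4626 in EMM. Cdh3 made up most of these sums, with means of 1488 in SOM and 3515 in EMM. The test was not passed by 7 of the 10. Krt14 (43.7 in SOM, 22.7 in EMM), Trp63 (12.7, 7.26) and Grhl3 (15.1, 7.08) had higher means in SOM. So did Krt5 (71.1, 64.5) and Krt18 (45.8, 44.4). The means of Krt8 (43.9, 333), Cdh1 (54.4, 331), Epcam and Perp were higher in EMM. In such bulk tissue, fewer cells of a type and less RNA per cell cannot be told apart, and the part of these cells in the results below was not tested.

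Of the 10 genes, 2 were higher in SOM (Tead2 and Tead3) and 4 were higher in EMM (Wwtr1, Tead1, Tead4 and Ctgf) in limma with Benjamini-Hochberg adjustment over all genes at 0.05. The differences of Yap1, Cyr61, Ankrd1 and Amotl2 did not pass. Most genes of the table differed between these tissues, since 72.1% of the 14249 genes tested were called, 36.0% as higher in SOM and 36.1% as higher in EMM. The libraries of the groups did not overlap in 6 of the 10 genes, against 66.1% of all genes tested, so the share called among these genes was near the background. Their median log2 difference (SOM minus EMM) was -0.56, against 0.01 over all genes tested. All levels below are normalized counts unless given per kb, and differences are SOM minus EMM on the scale of log2(normalized count + 1).

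**Figure D1:**
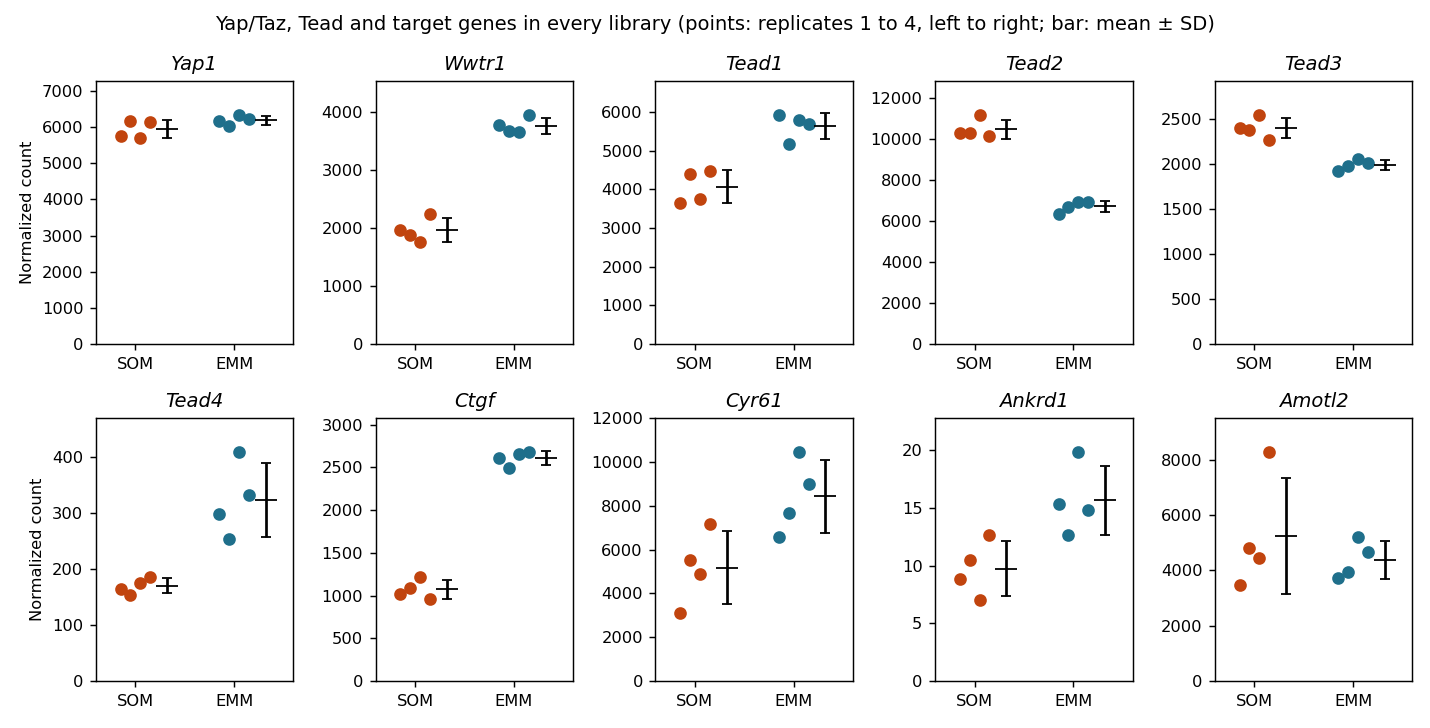
Normalized count (vertical axis, from 0) of each of the 10 genes in the 4 SOM libraries (left) and the 4 EMM libraries (right), with the mean and SD of each group as a black bar. The groups are apart in Wwtr1, Tead1, Tead2, Tead3, Tead4 and Ctgf, and overlap in Yap1, Cyr61, Ankrd1 and Amotl2.

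Tead factors bind the motif GGAATG, and DNA stretches that hold it are shown because the target genes are known for Tead-dependent promoters. The 250 bases before each RefSeq transcription start on GRCm38.p6 were searched on both strands (GGAATG or CATTCC). RefSeq windows were matched for 7 of the 10 genes, namely Yap1, Wwtr1, Tead2, Tead3, Cyr61, Ankrd1 and Amotl2, while Tead1, Tead4 and Ctgf were not matched. The motif was found for 6 of these 7 genes, all but Tead2, and for 14.4% of all 27025 genes with a window. By window, it was found in 8 of the 10 windows of these 7 genes and in 12.6% of all 32851 windows. Overlapping windows of Wwtr1 hold the same motif, so the windows are not independent. In the lines below the motif is in capitals, and all sequences run 5′ to 3′ on the strand of the gene.
Cyr61, chr3:145649986-145650235, minus strand, motif 103 bases before the start: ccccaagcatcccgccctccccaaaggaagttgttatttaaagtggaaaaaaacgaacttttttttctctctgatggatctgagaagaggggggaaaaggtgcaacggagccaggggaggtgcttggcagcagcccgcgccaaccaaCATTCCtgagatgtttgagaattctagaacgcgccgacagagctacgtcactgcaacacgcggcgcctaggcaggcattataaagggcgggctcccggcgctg
Wwtr1, chr3:57576031-57576056, minus strand, 136 bases before the start: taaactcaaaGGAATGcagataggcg
Yap1, chr9:8004722-8004747, minus strand, 141 bases before the start: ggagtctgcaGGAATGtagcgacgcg
Amotl2, chr9:102717729-102717754, plus strand, 65 bases before the start: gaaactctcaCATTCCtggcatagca
Ankrd1, chr19:36120039-36120064, minus strand, 210 bases before the start: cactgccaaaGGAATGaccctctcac
Ankrd1, chr19:36119952-36119977, minus strand, 123 bases before the start: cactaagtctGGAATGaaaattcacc
Tead3, chr17:28350972-28350997, minus strand, 182 bases before the start: cgacgagcgaGGAATGgggtgcgcgg
Tead3, chr17:28350708-28350733, minus strand, 123 bases before a second start, with a pair of motifs: cggccgggctCATTCCgtaCATTCCg
The stretches of Amotl2 and Ankrd1 and the second of Tead3 lie in annotated exons of these genes in the GENCODE M21 annotation, and the others lie outside annotated exons. A match describes these letters and does not show binding, which was not measured.

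Of the coactivator pair, Wwtr1 was lower in SOM and Yap1 did not pass the test. Yap1 encodes Yap and lies on chromosome 9 from 7931999 to 8004596 (GRCm38, minus strand). It stood at 5747, 6168, 5690 and 6131 normalized counts in SOM replicates 1 to 4, against 6167, 6030, 6320 and 6217 in EMM replicates 1 to 4. The ranges overlapped, and Yap1 varied least of the 10 genes in both tissues, with coefficients of variation of 4.22% in SOM and 1.96% in EMM. Its log2 difference was -0.06 (SE 0.05, limma adjusted p = 0.243), with a 95% interval of -0.16 to 0.04. Its exons share 116 bases with those of Gm20416 on the other strand.

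Wwtr1 encodes Taz, the paralog of Yap, and lies on chromosome 3 from 57455649 to 57575910. Its levels were 1961, 1870, 1758 and 2242 normalized counts in SOM, against 3764, 3662, 3647 and 3935 in EMM. Every SOM library lay below every EMM library. The means were 1958 ± 207 in SOM and 3752 ± 133 in EMM (SD, n = 4 each), 1.92-fold lower in SOM, with a log2 difference of -0.94 (SE 0.06, limma adjusted p = 2.15e-09).

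The Yap1 to Wwtr1 ratio was tested as well, and missed the threshold after adjustment. In normalized counts it was 2.93, 3.30, 3.24 and 2.73 in SOM libraries and 1.64, 1.65, 1.73 and 1.58 in EMM libraries, and it does not depend on library scaling. The log2 ratio was 0.88 higher in SOM, in 4 of 4 libraries above all EMM libraries. The two-sided exact permutation test gave p = 0.0286, the smallest that 4 against 4 allows, and 0.0571 after adjustment over the 2 ratios tested, which is above 0.05. Per kb of annotated exon, Wwtr1 made up 38.9% ± 2.09 of the pair in SOM and 54.0% ± 0.945 in EMM (SD, n = 4 each). The pair summed to 983 to 1131 normalized counts per kb in SOM libraries, below the 1418 to 1495 of EMM libraries.

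The 4 Tead genes, whose proteins share the Tea DNA-binding domain and differ mainly in where they are expressed, split into a pair higher in SOM and a pair higher in EMM. Tead2, known for early and broad expression in mouse embryos and neural folds, lies on chromosome 7 from 45215753 to 45233644. It stood at 10275, 10311, 11154 and 10131 normalized counts in SOM, against 6367, 6686, 6917 and 6949 in EMM. No SOM library came near the EMM range. The means were 10468 ± 464 in SOM and 6730 ± 269 in EMM, 1.56-fold higher in SOM (log2 difference 0.64, SE 0.05, limma adjusted p = 6.55e-09). Its exons share 13 bases with those of Cd37, which stood at 25.9 in SOM and 26.7 in EMM.

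Tead3, known for its expression in placenta, lies on chromosome 17 from 28331671 to 28350817. It stood at 2391, 2376, 2536 and 2265 normalized counts in SOM and at 1921, 1979, 2050 and 2007 in EMM. The groups did not overlap, although the difference was small, at 1.20-fold (log2 difference 0.26, SE 0.05, limma adjusted p = 0.000150).

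Tead1, a factor of heart and muscle promoters, lies on chromosome 7 from 112679318 to 112906807. It stood at 3652, 4390, 3755 and 4462 normalized counts in SOM, against 5908, 5164, 5798 and 5688 in EMM. All SOM libraries were lower, and the log2 difference was -0.48 (SE 0.07, limma adjusted p = 1.86e-05), or 1.39-fold. Tead4, known for the trophectoderm and for muscle differentiation, lies on chromosome 6 from 128224288 to 128300823. It had 165, 154, 176 and 186 normalized counts in SOM, against 298, 253, 409 and 333 in EMM. It was 1.90-fold lower in SOM (log2 difference -0.90, SE 0.13, limma adjusted p = 8.92e-06), and EMM libraries spread more widely, with a coefficient of variation of 20.3% in EMM against 8.03% in SOM.

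**Figure D2:**
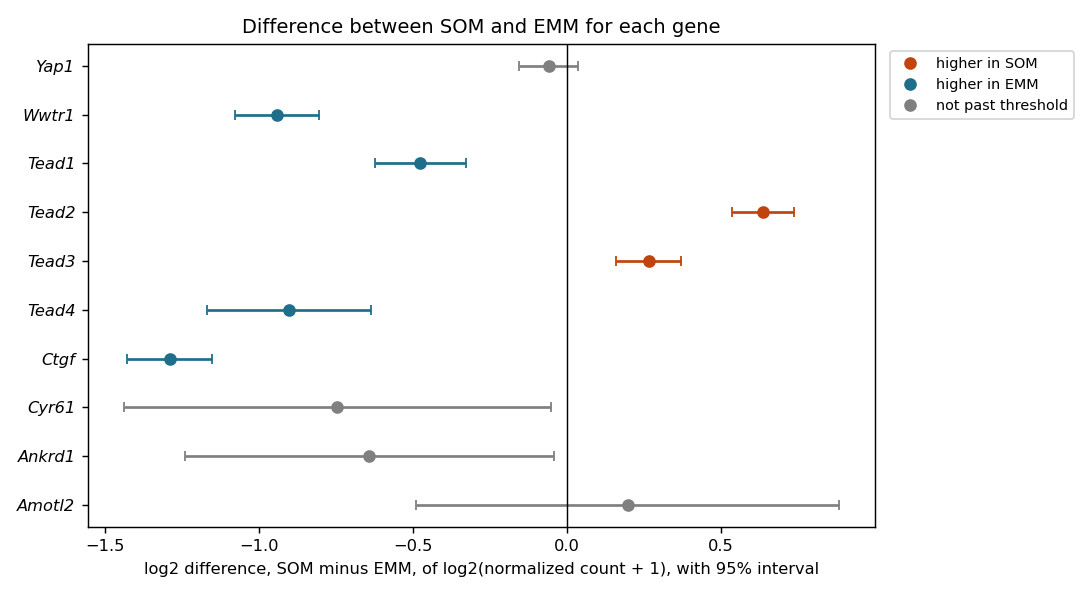
Log2 difference, SOM minus EMM (horizontal axis), of each of the 10 genes with its 95% interval from limma, coloured by call at an adjusted p of 0.05. Ctgf lies furthest toward EMM at -1.29, Tead2 furthest toward SOM at 0.64, and the intervals of Cyr61, Ankrd1 and Amotl2 are the widest.

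Per kb of exon, Tead2 led the family in every library. It held 74.7% to 76.8% of the summed Tead level in SOM libraries and 62.3% to 65.2% in EMM libraries. Tead1 held 9.12% to 11.6% in SOM and 17.8% to 20.4% in EMM, and Tead4 held 1.49% to 1.82% in SOM and 3.28% to 4.96% in EMM. The share of Tead3 was 11.9% to 12.6% in SOM and 13.2% to 13.8% in EMM, so that its share was lower in SOM although its level was higher there. The second place in the family was thus held by Tead3 in SOM, at 356 ± 16.5 per kb against 299.5 ± 31.0 for Tead1, and by Tead1 in EMM, at 416 ± 24.3 against 296 ± 8.03 for Tead3. Per kb, the ranges of Tead1 and Tead3 did not overlap within either tissue. In normalized counts, Tead1 lay above Tead3 in every SOM library (3652 to 4462 against 2265 to 2536). The second place of Tead3 in SOM thus rests on the exon lengths used. The family summed to 2817 to 3033 normalized counts per kb in SOM and 2134 to 2291 in EMM. These lengths are unions of all annotated exons, and transcripts that use fewer exons would shift levels between genes, though not between tissues for a gene whose transcripts are the same in both.

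**Figure D3:**
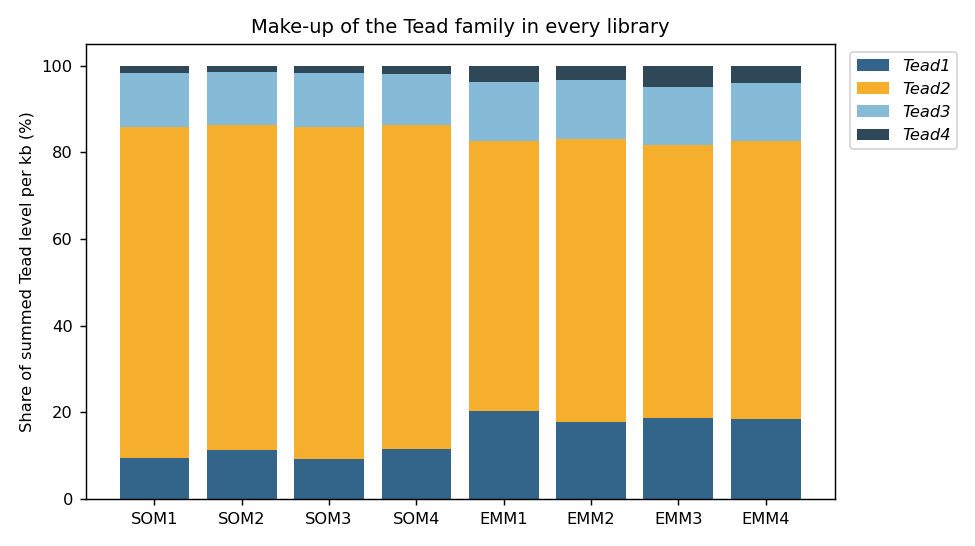
Share of the summed Tead1 to Tead4 level per kb (vertical axis, %) in each SOM library (left) and each EMM library (right), stacked by gene. Tead2 is the widest band in all 8 libraries and is wider in SOM, while Tead1 and Tead4 are narrower there.

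Of the 4 target genes, Ctgf alone passed the test. It encodes a secreted matricellular CCN protein that binds growth factors and integrins, and lies on chromosome 10 from 24595442 to 24598683. Its levels were 1014, 1094, 1217 and 962 normalized counts in SOM, against 2613, 2500, 2663 and 2681 in EMM. The groups lay far apart relative to their spread, with means of 1071 ± 111 in SOM and 2614 ± 81.4 in EMM (SD, n = 4 each). This was 2.44-fold lower in SOM, with a log2 difference of -1.29 (SE 0.07, limma adjusted p = 5.13e-11), a size that 88.7% of all genes tested did not exceed. A stretch of 665 exonic bases of Ctgf overlaps the antisense transcript Gm15270, and the sources used here do not say whether counting used strand, so reads of the pair may not be told apart.

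Cyr61, the other CCN target gene and an immediate early gene of growth factor response, lies on chromosome 3 from 145646976 to 145649981. It stood at 3096, 5536, 4898 and 7161 normalized counts in SOM, against 6571, 7689, 10452 and 9010 in EMM. The highest SOM library lay above the lowest EMM library. The means were 5173 ± 1680 in SOM and 8430 ± 1676 in EMM, with a log2 difference of -0.75 (SE 0.29, limma adjusted p = 0.0535), which did not pass, although the 95% interval for this gene alone was -1.44 to -0.05. Without SOM replicate 4 the difference was -0.92 with an adjusted p of 0.0244, and the adjusted p of the alternatives ran from 3.66e-06 to 0.124. In the authors' deposited table, whose sign is EMM over SOM, Cyr61 had a log2 fold change of 0.65 and an adjusted p of 0.0196.

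Amotl2 encodes an angiomotin-like junction protein that binds Yap and holds it outside the nucleus, and is itself induced by Yap. It lies on chromosome 9 from 102716672 to 102733418. It stood at 3451, 4807, 4457 and 8275 normalized counts in SOM and at 3717, 3924, 5221 and 4653 in EMM. SOM replicate 4 was the highest of all libraries and SOM replicate 1 the lowest, and the other 2 SOM libraries lay within the EMM range. The log2 difference was 0.20 (SE 0.28, limma adjusted p = 0.557), with an interval of -0.49 to 0.88. Without SOM replicate 4 it was -0.05, and the adjusted p of the alternatives ran from 0.00396 to 0.811.

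Ankrd1, which encodes a nuclear ankyrin repeat protein of stretched heart and skeletal muscle, was close to the limit of detection. It lies on chromosome 19 from 36111961 to 36120099, and had 8.81, 10.5, 7.02 and 12.7 normalized counts in SOM, against 15.3, 12.7, 19.9 and 14.8 in EMM. These rest on 52 reads in the 4 SOM libraries and 52 in the 4 EMM libraries, with 7 to 19 reads a library, and the filter of 10 normalized counts in at least 4 libraries was passed by 2 SOM and 4 EMM libraries. The highest SOM value lay just above the lowest EMM value. The log2 difference was -0.64 (SE 0.28, limma adjusted p = 0.0518) and did not pass, whereas edgeR on the recovered reads gave an adjusted p of 0.0426. Over all alternatives run its adjusted p lay between 0.0343 and 0.169. Of its relatives, Ankrd2 had 9 reads in SOM and 8 in EMM and was not tested.

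Cyr61 and Amotl2 ordered the libraries within each tissue as the immediate early and heat shock genes did, and Ctgf did not. Immediate early genes such as Fos and Egr1 are induced within minutes by growth factors, stretch or handling of tissue. The mean log2 level of 27 such genes was 9.04, 9.75, 9.72 and 10.60 in SOM replicates 1 to 4 and 9.34, 9.92, 10.23 and 10.13 in EMM replicates 1 to 4. Ordered by this mean, SOM libraries ran 1, 3, 2, 4 and EMM libraries 1, 2, 4, 3. These orders rest in part on close values, 9.72 and 9.75 in SOM and 10.13 and 10.23 in EMM. Cyr61 and Amotl2 both gave these same orders in both tissues, Tead1 did so in SOM and Tead3 in EMM. Ctgf ran 4, 1, 2, 3 in SOM and 2, 1, 3, 4 in EMM.

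Their spread between libraries was also wider than that of Ctgf. The coefficients of variation of Cyr61 were 32.5% in SOM and 19.9% in EMM, and those of Amotl2 were 40.0% in SOM and 15.8% in EMM. The SOM values rested in part on single libraries, since that of Amotl2 was 16.6% without SOM replicate 4 and that of Cyr61 was 19.9% without SOM replicate 1. Those of Ctgf were 10.4% in SOM and 3.11% in EMM (6.50% without SOM replicate 3 and 1.31% without EMM replicate 2), beside medians of 5.52% in SOM and 4.48% in EMM over 5143 genes with a mean of at least 1000. The SOM coefficient of Cyr61 exceeded that of 99.7% of these genes. With the immediate early mean of each library as a term in limma, Cyr61 differed by -0.65 (adjusted p = 3.66e-06) and Amotl2 by 0.29 (adjusted p = 0.00396), so that Cyr61 was then called higher in EMM and Amotl2 higher in SOM. Yap1 and Ankrd1 did not pass in that fit either. The list was chosen with its variation between these libraries known. In this list 5 genes rose in SOM, 5 fell and 17 did not pass the test. The share called was below the 72.1% of all genes tested. Among the called genes of the list, Myc (1.54), Hspa8 (0.34) and Hsp90aa1 (0.20) were higher in SOM. Hspb1 (-1.77), Klf6 (-1.78) and Klf2 (-1.06) were lower in SOM. The part of these genes in the differences of Cyr61 and Amotl2 was not tested. That fit cannot show it, since the list was so chosen and itself holds genes called between the tissues.

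**Figure D4:**
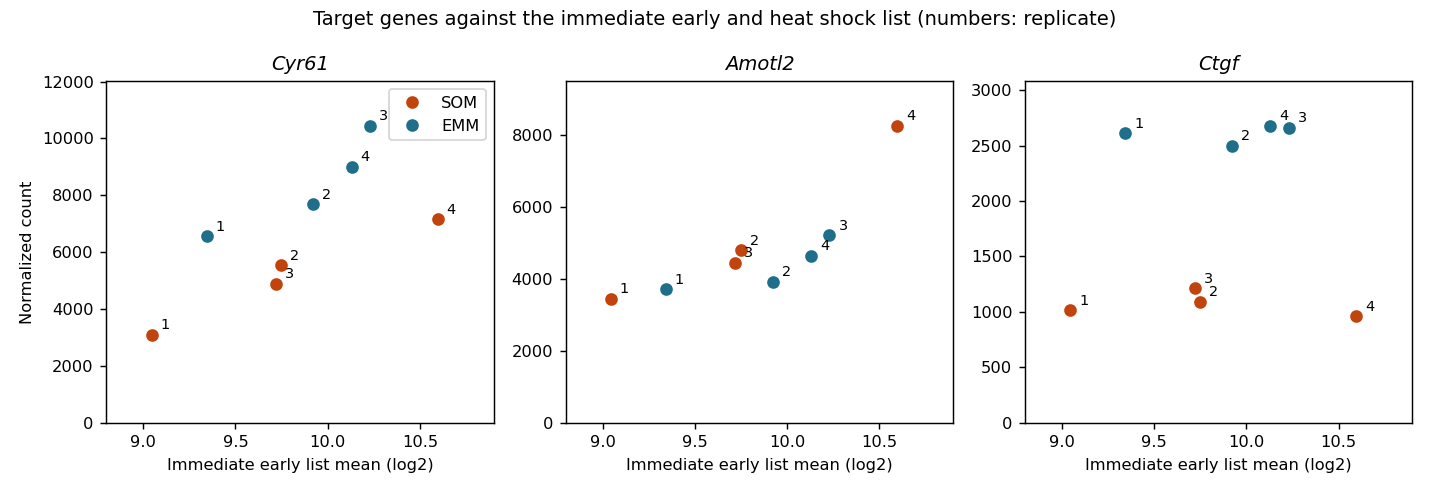
Normalized count (vertical axis) of Cyr61, Amotl2 and Ctgf against the mean log2 level of 27 immediate early and heat shock genes (horizontal axis) in each SOM and EMM library, numbered by replicate. Cyr61 and Amotl2 are highest where the mean is highest within each tissue, while Ctgf lies between 962 and 1217 in SOM and between 2500 and 2681 in EMM.

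The log2 ratio of Ctgf to Cyr61 was -2.21 ± 0.54 in SOM and -1.67 ± 0.27 in EMM (SD, n = 4 each). The difference of -0.55 did not pass the two-sided exact permutation test (p = 0.143, also 0.143 after adjustment over the 2 ratios). Without SOM replicate 1 the difference was -0.75 with an unadjusted exact p of 0.0286, the smallest that this split allows. Leaving out any other single library gave an unadjusted exact p of 0.143 to 0.314.

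Across the 10 genes, levels per kb ran over nearly the same order in both tissues at the ends and differed in the middle. In SOM, Cyr61 at 2562 ± 832 and Tead2 at 2186 ± 96.9 normalized counts per kb stood first, with overlapping ranges. They were followed in SOM by Amotl2 (834 ± 334) and Yap1 (641 ± 27.0), which overlapped, and then by Wwtr1 (410 ± 43.3), Ctgf (374 ± 38.8) and Tead3 (356 ± 16.5), whose ranges overlapped from each to the next. Tead1 came next, and Tead4 (47.3 ± 3.79) and Ankrd1 (3.38 ± 0.837) were last. In EMM, Cyr61 at 4175 ± 830 lay above Tead2 at 1406 ± 56.1 with no overlap. Ctgf (914 ± 28.4) came next there, followed by Wwtr1 (785 ± 27.8), Amotl2 (696 ± 110) and Yap1 (668 ± 13.1), of which Wwtr1 and Amotl2 overlapped, as did Amotl2 and Yap1. Tead1 and Tead3 followed, and Tead4 (89.8 ± 18.3) and Ankrd1 (5.43 ± 1.05) were again last.

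Genes with the most similar profile were sought among 11265 other genes with a mean of at least 100, by the root mean square difference of mean-centred log2 levels over the 8 libraries. Nearest to Ctgf was Osr1, a transcription factor gene of embryonic mesenchyme, at a distance of 0.07, with 939 normalized counts in SOM and 2239.7 in EMM. Nearest to Wwtr1 were Kidins220, Ppfibp1 and Gadd45b, each at 0.05 or 0.06. Nearest to Cyr61 were Spry1, an inhibitor of growth factor signalling, at 0.17, then Gpr161 and the immediate early gene Klf2. Nearest to Amotl2 was Mafk at 0.11, followed by Dusp18 and the inducible kinase gene Sik1. Tead2 was nearest to Pold2, a DNA polymerase subunit gene, and to the chromatin gene Mta1, both at 0.02. Tead1 was nearest to the kinase gene Aak1 (0.04), Tead3 to the RNA-binding protein gene Pcbp1 (0.02), Yap1 to Igf2bp3 (0.02) and Ankrd1 to Eif2c2 (0.10). Tead4 was nearest to Nav2 (0.08), the nonmuscle myosin gene Myh9 (0.09) and Col18a1 (0.10). With 8 libraries in 2 groups, many genes share such a profile, and the distances are a description.

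In the kinase module upstream of Yap and Taz all 16 genes were tested, and 3 rose in SOM, 7 fell in SOM and 6 did not pass. Of all genes tested 72.1% were called, 36.0% higher in SOM and 36.1% higher in EMM, so the share called in the module was not above the background. Its median difference was -0.13, against 0.01 over all genes. Mob1a, the Lats coactivator gene, had 399 ± 57.8 normalized counts in SOM and 955 ± 48.5 in EMM (log2 difference -1.27, limma adjusted p = 5.38e-09). Lats2, itself known as a Yap target, had 1502 ± 190 in SOM and 2414 ± 79.3 in EMM (-0.69), and shares 2955 exonic bases with the annotated gene Gm49361. The upstream kinase gene Taok3 was also lower in SOM (-1.06). Stk38 (0.19), the tumour suppressor gene Nf2 (0.17) and Taok2 (0.16) were higher in SOM by small amounts. Named after their values were seen, Lats1 (-0.40) and Mob1b (-0.61) were lower in SOM, while the Mst kinase genes Stk3 (0.03) and Stk4 (-0.15) and the scaffold gene Sav1 (-0.01) did not pass.

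Of 22 binding partners and upstream regulators, 20 were tested, and of these 5 rose in SOM, 7 fell in SOM and 8 did not pass (median difference -0.01). The share called was again not above the 72.1% of all genes tested. Vgll3, which encodes a vestigial-like cofactor that binds Tead, stood at 1638 ± 123 in SOM against 672 ± 38.6 in EMM (log2 difference 1.28, limma adjusted p = 4.61e-11). Csnk1e, a casein kinase gene, and Wtip, a Lats inhibitor of the Ajuba family, were higher in SOM by 0.33 and 0.35. The cadherin gene Fat1 (-0.86) and the tight junction gene Tjp1 (-0.95) were lower in SOM. Of the other Vgll genes, Vgll1 had 0 reads in all libraries, Vgll2 had 11 reads in SOM and 1 in EMM, and Vgll4, a Tead corepressor named after its values were seen, was higher in SOM by 0.33.

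Of 16 further genes widely used as Yap/Taz targets in human cells, all tested, 3 rose in SOM, 12 fell in SOM and Nuak2 did not pass, where 36.0% of all genes tested were called higher in SOM and 36.1% higher in EMM. The median log2 difference was -0.89, against 0.01 over all genes tested. Ccdc80, a secreted matrix protein gene, stood at 893 ± 93.0 in SOM against 5926 ± 352 in EMM (-2.73, limma adjusted p = 1.07e-13). Tgfb2, a growth factor gene, had 839 ± 72.3 in SOM and 3373 ± 266 in EMM (-2.01), and Dock5 was lower in SOM (-1.51). Igfbp3, which encodes a binding protein of insulin-like growth factors, went against most of the other targets with 1919 ± 148 in SOM and 430 ± 51.2 in EMM (2.16, limma adjusted p = 4.89e-12). Asap1 (0.36) and Arhgef17 (0.26) were also higher in SOM. Many of these genes respond to other pathways too, and the macrophage and pericyte marker sums given above were also lower in SOM.

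Relatives of the target genes were few. Of 6, 4 were tested, and of these 1 rose in SOM, 2 fell in SOM and Wisp3 did not pass (median difference -0.72). The share called was near the 72.1% of all genes tested. Wisp1, another CCN gene, had 665 ± 52.7 in SOM and 3890 ± 322 in EMM (-2.55, limma adjusted p = 4.38e-14), and Nov, also of this family, had 23.4 ± 2.97 in SOM and 81.1 ± 26.9 in EMM (-1.70). Ankrd23 was higher in SOM by 0.26 (limma adjusted p = 0.0348, between 0.0184 and 0.196 over the alternatives run) and shares 2109 exonic bases with Gm42417. That call was lost without SOM replicate 1 (adjusted p = 0.0660), 3 (0.0634) or 4 (0.0844), without EMM replicate 1 (0.0939) or 3 (0.0812), and in the authors' deposited table (0.0672).

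Serum response factor (Srf) and its Mrtf cofactors are the other main transcriptional readout of actin tension, and share target genes with Yap and Tead. Of 15 genes of this axis, all tested, none rose in SOM, 12 fell in SOM and 3 did not pass, where 36.1% of all genes tested were called higher in EMM. The median difference was -1.03, against 0.01 over all genes. The 3 that did not pass were Srf itself (0.06) and the cofactor genes Mkl1 (-0.06) and Mkl2 (-0.15), whereas the 12 others encode cytoskeletal proteins. Acta2, the smooth muscle actin gene, had 2167 ± 238 in SOM and 38221 ± 2811 in EMM (-4.14, limma adjusted p = 5.51e-14). Myl9 (-1.75) and Tpm1 (-1.24) were also lower in SOM. Smooth muscle and pericyte cells express these genes, and their marker sums, given above, came mostly from Pdgfrb and Notch3. Of these markers 8 were called lower in SOM and 2 higher. Among the lower ones, Myh11 had means of 118 in SOM and 465 in EMM, Rgs5 had 26.7 and 149, and Notch3 had 4399 and 4939. The 2 higher ones were Cspg4 (800 in SOM, 629 in EMM) and Mcam (1580, 1155). The part of these cells in the differences of the Srf and actin list was not tested.

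**Figure D5:**
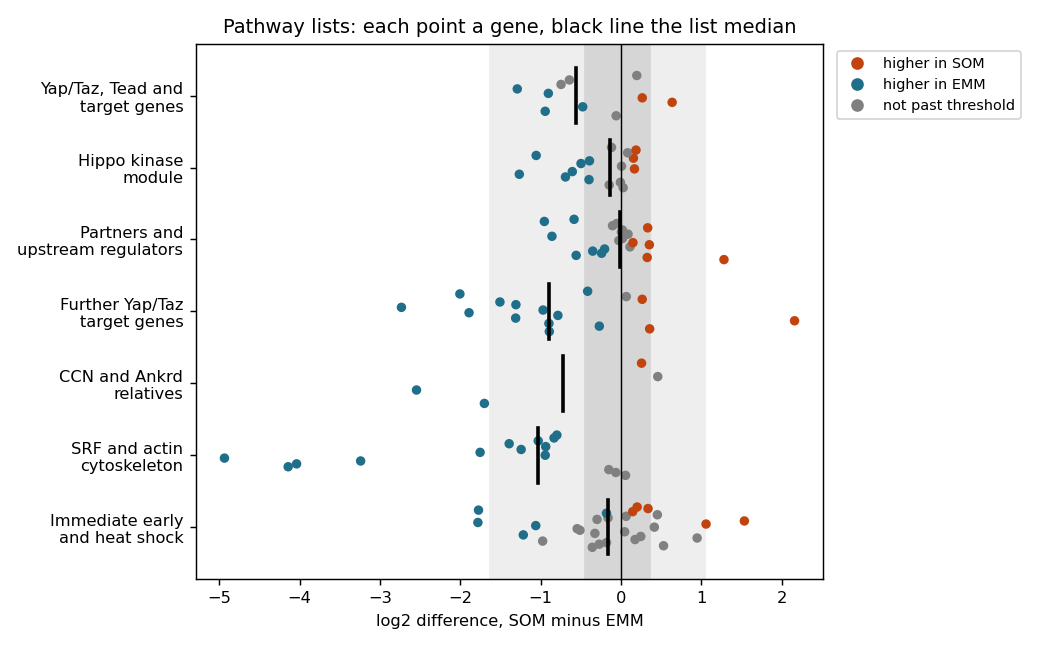
Log2 difference, SOM minus EMM (horizontal axis), of every tested gene of the 10 described and of the 6 lists, coloured by call, with list medians as black lines; grey bands hold the middle 50% and 90% of all genes tested. The medians of the 10 genes (-0.56), the further Yap/Taz targets (-0.89), the CCN and Ankrd relatives (-0.72) and the Srf and actin list (-1.03) lie left of the inner band, whose lower edge is -0.45.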

How the data were processed

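Total RNA libraries (Illumina TruSeq, per the labels' protocols) of 4 SOM and 4 EMM pools were analysed. The submitters' processing notes name bcl2fastq, STAR, DESeq2 and mm10, without versions or annotation. Per the file headers and values, the deposited signal is a normalized count, in which reads were scaled by a factor for each library. It also holds the authors' log2 fold change (EMM over SOM) with its error, Wald score, p-value and adjusted p-value, all deposited by the authors. Dividing each column by its smallest nonzero value gave whole reads for 100% of values (within 1 ppm), and 12.7 to 33.7 M reads a library.

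Values were taken as log2(normalized count + 1), which understates changes of low genes. Genes with at least 10 in at least 4 libraries (14249) were fitted with limma 3.58.1 (R 4.3.3, trend and robust moderation, no covariate) and adjusted by Benjamini-Hochberg over all of them. The fit was tested on simulated data. Their p-values reflect spread among pools of embryos. Alternatives were another pseudocount, other filters, scalings and tools (edgeR 4.0.16 and limma-voom on the recovered reads), a replicate block, the immediate early mean as a covariate and each library left out. Named genes were the 10 described and, from each list, the up to 3 called genes in each direction whose adjusted p was lowest. They also included the 3 nearest profiles of each of the 10. A gene that this rule names is not reported here. Genes and lists were chosen with earlier results of these data known. Coordinates and exon lengths came from GENCODE M21 (GRCm38), promoters from RefSeq. Libraries of a group differed by more than counting noise (chi-square per degree of freedom 3.72 to 19.0).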

Additional observations from a re-analysis of the deposited data

Results flagged for a closer look

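A library stood apart from the other 3 of its group in 4 of the 84 groups of values looked at, where chance flags about 1 in 20, and none of these was in the 10 genes. Fat1 stood at 6462 normalized counts in SOM replicate 4, against 5330 to 5443 in the other SOM libraries. Tjp1 stood at 3551 in the same library, against 2808 to 2929. Taok3 stood at 505 in EMM replicate 1, against 617 to 636 in the other EMM libraries, and Klf2 at 1159 in that library, against 1453 to 1488.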

How the results depend on the processing

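Of the 10 genes, 7 kept their direction and their side of the threshold in all alternatives run, and so did 29 of 30 other named genes of the lists, all but Ankrd23. Amotl2 changed direction without SOM replicate 4 (-0.048; the cause was not tested), and with single libraries left out its log2 difference lay between -0.05 and 0.37. Cyr61 passed the threshold in 5 of its 19 alternatives and Ankrd1 in 5 of 18, always as higher in EMM. Between 4 and 6 of the 10 genes were called higher in EMM and 2 or 3 higher in SOM. Without both SOM replicates 1 and 4, an alternative added after the data were seen, the counts were 5 and 2. The difference in the log2 ratio of Ctgf to Cyr61 lay between -0.75 and -0.32 with single libraries left out. No clear pairing of the libraries by replicate number was seen. The correlations of same-numbered libraries lay between -0.02 and 0.13, and 1 of 4 SOM libraries correlated best with its own number. With 4 libraries a group, such correlations cannot exclude a pairing. With a replicate block, 5103 genes were higher in SOM and 5146 in EMM, against 5129 and 5149, and Cyr61 had an adjusted p of 0.0183. The paired exact test of the Yap1 to Wwtr1 ratio gave the same difference of 0.88 with p = 0.125, the smallest that 4 pairs allow. Depth limited only Ankrd1 among the 10 genes, which dropped out under the filter at 50. The coefficients of variation without single libraries were also added after the data were seen.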
